A study of Saccharomyces cerevisiae with 34 samples.

Results

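The 10 histone genes of the budding yeast Saccharomyces cerevisiae were followed through chemical inhibition of Kin28, the TFIIH kinase that phosphorylates the C-terminal domain of RNA polymerase II. They were taken by systematic name from a table of read counts that holds 5390 S. cerevisiae features, and all 10 were found and passed the filter on low counts in every fit. The table covers 34 libraries, 19 of nascent RNA and 15 of total RNA. Strain BY4741 was used throughout, as wild type (WT) or with the KIN28 alleles kin28as or kin28is, grown in medium without histidine and harvested in log phase. For 1 h before harvest, cells were exposed to CMK, which inhibits irreversibly, to 1-NAPP-1, whose inhibition is reversible, or to the solvent DMSO. Every culture but 1 was given 5 mM 4-thiouracil (4tU) in its last 6 min, so that RNA made in that window could be biotinylated and pulled down as nascent RNA. Cells of the fission yeast S. pombe, also labelled, were mixed in before lysis at a ratio of 1 to 6 and serve as an outside reference. The labels give no detail of the 2 mutant alleles and do not say whether replicates were separate cultures, so p-values here reflect sample-to-sample spread that may be technical in origin.

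The nascent fraction comprised 3 DMSO, 3 1-NAPP-1 and 4 CMK libraries of kin28is and 2 WT libraries for each treatment. In total RNA, both strains had 2 libraries per treatment. The kin28as strain had 1 DMSO and 1 1-NAPP-1 library per RNA fraction, and 1 further WT DMSO library in each fraction came from cells given no 4tU. Replicate 1 was labelled 2 µM and all later replicates 5 µM, so the dose and the replicate set cannot be told apart. The 8 nascent libraries of replicate 1 stood apart, with 4.71 to 45.8 S. cerevisiae reads per S. pombe read against 0.277 to 4.15 in the 10 later ones. The tests of treatments in nascent RNA therefore used the 5 µM libraries alone, and those in total RNA held the replicate set as a term, while nascent against total RNA was tested over both sets. Depth ran from 517887 to 15568445 reads per library over both species. The 8 markers of the strain background were mixed. Of the genes deleted in BY4741, MET17 had a median of 0 CPM in both fractions, URA3 a median under 1 CPM but up to 359 CPM in nascent RNA, LEU2 a median of 5.45 CPM in total RNA and up to 32.7 CPM in nascent RNA, and HIS3 lay at 26.5 to 220 CPM (lowest and highest in nascent RNA). The MATa genes STE2 and MFA1 lay at 173 to 1005 CPM and 0 to 138 CPM, the MATalpha pheromone gene MFALPHA1 at no more than 3.09 CPM, and the MATalpha receptor gene STE3 at a median of 13.6 CPM in total RNA and up to 75.5 CPM in nascent RNA.

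Core histones H2A, H2B, H3 and H4 form the octamer around which DNA is wrapped in the nucleosome. In budding yeast each is encoded by a pair of genes, and the genes sit head to head as H2A with H2B and H3 with H4, so that both genes of a pair share 1 control region. These genes are transcribed in a burst as DNA replication begins, driven by the activator Spt10 with Spt21 and by the cell cycle factors SBF and MBF, and at all these pairs but HTA2-HTB2 are held down outside that window by the HIR complex. The variant H2A.Z and the linker histone H1 come from single genes outside this arrangement.

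The H2A genes are HTA1 (YDR225W, chrIV:915530-915928, plus strand) and HTA2 (YBL003C, chrII:235394-235792, minus strand). The H2B genes are HTB1 (YDR224C, chrIV:914317-914712, minus strand) and HTB2 (YBL002W, chrII:236492-236887, plus strand). H3 is encoded by HHT1 (YBR010W, chrII:256331-256741, plus strand) and HHT2 (YNL031C, chrXIV:575640-576050, minus strand). H4 is encoded by HHF1 (YBR009C, chrII:255373-255684, minus strand) and HHF2 (YNL030W, chrXIV:576727-577038, plus strand). H2A.Z is the product of HTZ1 (YOL012C, chrXV:303579-303983, minus strand) and H1 that of HHO1 (YPL127C, chrXVI:308828-309604, minus strand). Coordinates are coding regions in the RefSeq annotation of assembly R64, the assembly the submitters name as sacCer3, and no annotated gene overlapped any of the 10.

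The 4 shared control regions were 817 bases long between HTB1 and HTA1, 699 between HTA2 and HTB2, 646 between HHF1 and HHT1 and 676 between HHT2 and HHF2. The 15-base element known to be bound by Spt10, searched on both strands as TTCC, 6 bases of any kind, TTC, 1 base of any kind and C, was present in the 500 bases before the start codon of 8 of the 10 genes and in 2.89% of the 6019 such windows of the genome. The matches are shown with 8 bases on either side, read on the strand that carries the element and with the element in capitals, because they are the feature that the 8 core genes share and that HTZ1 and HHO1 lack in these windows. Genes of a pair share their matches.
HTB1-HTA1 element 1, chrIV:915106-915136, plus strand: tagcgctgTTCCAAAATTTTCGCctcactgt
HTB1-HTA1 element 2, chrIV:915129-915159, minus strand: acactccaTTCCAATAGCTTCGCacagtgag
HTA2-HTB2 element, chrII:236100-236130, minus strand: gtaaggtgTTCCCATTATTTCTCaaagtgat
HHF1-HHT1 element, chrII:255936-255966, minus strand: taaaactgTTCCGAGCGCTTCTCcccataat
HHT2-HHF2 element, chrXIV:576338-576368, minus strand: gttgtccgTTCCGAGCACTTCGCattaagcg
The letters of the MBF element, ACGCGT, were found before HTA2 and HTB2 and in 5.4% of all windows, and those of the SBF element, CNCGAAA, before 5 of the 10 genes and in 22% of all windows. The pair with the lowest-level gene, HTA2, and the pair with the H3 and H4 genes HHT2 and HHF2 are shown over 300 bases around the element, on the plus strand, where the element in capitals reads as its reverse complement.
HTA2-HTB2, chrII:235965-236264: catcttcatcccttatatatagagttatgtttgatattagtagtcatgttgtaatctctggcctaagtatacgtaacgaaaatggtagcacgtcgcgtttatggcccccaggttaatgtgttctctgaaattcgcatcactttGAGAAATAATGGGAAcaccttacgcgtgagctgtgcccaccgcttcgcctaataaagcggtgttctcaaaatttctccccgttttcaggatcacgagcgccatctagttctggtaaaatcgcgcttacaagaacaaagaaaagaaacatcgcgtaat
HHT2-HHF2, chrXIV:576203-576502: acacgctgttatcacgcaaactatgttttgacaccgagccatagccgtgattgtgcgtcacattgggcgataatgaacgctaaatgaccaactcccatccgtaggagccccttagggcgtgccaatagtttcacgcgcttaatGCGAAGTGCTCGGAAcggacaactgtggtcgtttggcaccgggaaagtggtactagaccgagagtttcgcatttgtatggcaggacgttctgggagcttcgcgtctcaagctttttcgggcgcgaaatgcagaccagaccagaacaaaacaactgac

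The members of each pair are close copies, which bears on how reads are shared between them. Coding regions were 93.7% identical for HTA1 and HTA2, 87.9% for HTB1 and HTB2, 93.2% for HHT1 and HHT2 and 97.4% for HHF1 and HHF2. No stretch of 100 bases, the read length, from any of the 10 coding regions occurred without a mismatch elsewhere in the genome, but some stretches of the H3 and of the H4 pair differed by only 1 base. How reads split between copies is therefore uncertain. The first 60 coding bases of the H3 pair are shown with their 6 differing bases in capitals, since HHT1 and HHT2 behaved least alike.
HHT1, chrII:256331-256390, plus strand: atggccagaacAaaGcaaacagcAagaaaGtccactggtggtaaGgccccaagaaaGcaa
HHT2, chrXIV:575991-576050, minus strand: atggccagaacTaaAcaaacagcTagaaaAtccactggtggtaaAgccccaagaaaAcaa

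The level of each gene was compared per length, as reads per kb of coding region per 1000000 S. cerevisiae reads (RPKM), in the 6 WT total RNA libraries with 4tU. HHT2 was highest, with a lowest value of 1553, a median of 2186 and a highest of 2528 RPKM, above every library of the next gene. HTB2 (median 1388 RPKM), HHF1 (1224) and HHF2 (1110) followed and overlapped each other. HTB1 (529.5), HTA1 (429) and HHT1 (373) came next and overlapped, and HTZ1 (226), HHO1 (152.5) and HTA2 (95.6) were lowest. HTZ1, HHO1 and HTA2 did not overlap each other, so the second H2A gene was below the H1 gene in all 6 libraries. HHT1 alone spanned 62.3 to 2124 RPKM.

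Nascent and total RNA were compared in WT cells with DMSO, over libraries of both dose sets. Among S. cerevisiae genes, 0 of the 10 differed between the fractions in edgeR's quasi-likelihood test (Benjamini-Hochberg adjusted over 5234 genes), where 6.84% of genes were lower in nascent RNA and 4.01% higher, and 1 of the 10 had an unadjusted p under 0.05. DESeq2 also called 0 of the 10. That gene was HHO1, at -1.22 ± 0.49 (log2 nascent to total ± SE, adjusted p = 0.106), and it was lower in nascent than in total RNA in 11 of the 12 WT and kin28is libraries with a total RNA partner of the same strain, treatment and number. HHT1 had the highest value of all 5234 genes, 4.14 ± 2.21 (adjusted p = 0.226).

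In total RNA, 1 h of CMK left kin28is cells with less histone mRNA relative to their other mRNAs. HTB2, an H2B gene, stood at 523 and 428 CPM (reads per 1000000 S. cerevisiae reads) with DMSO, replicate 1 first, at 622 and 495 after 1-NAPP-1 and at 168 and 107 after CMK. HHF2, an H4 gene, stood at 336 and 268 CPM with DMSO, 384 and 214 with 1-NAPP-1, and 113 and 45.0 with CMK. HTA2, the minor H2A gene, stood at 45.8 and 45.8 CPM with DMSO, 50.2 and 34.3 with 1-NAPP-1, and 7.81 and 5.77 with CMK. For all 3 genes both CMK libraries lay below every other total RNA library of the series, and in the WT libraries HTB2 ranged from 379 to 599 CPM.

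Relative to other S. cerevisiae genes, 9 of the 10 histone genes were lower with CMK than with DMSO in total RNA, all but HHT1, where 20.3% of 5226 genes were lower. The median over the 10 was -1.63 on the log2 scale against 0.02 over all genes. The difference was -2.99 ± 0.34 for HTA2 (log2 ± SE, adjusted p = 0.00203), -2.28 ± 0.34 for HHF2 (adjusted p = 0.00275) and -2.09 ± 0.28 for HTB2 (adjusted p = 0.00239). HTA1, HHF1, HHT2 and HTB1 lay at -1.47 ± 0.23, -1.66 ± 0.30, -1.41 ± 0.34 and -1.80 ± 0.22, HTZ1 at -1.57 ± 0.22 and HHO1 at -1.32 ± 0.19. HHT1 gave -1.59 ± 0.72 (adjusted p = 0.0946). Without any 1 of the 4 libraries, 7 to 10 of the 10 were still called. In 9 genes both CMK libraries were below both DMSO libraries in CPM, as were 19.8% of all genes.

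Against 1-NAPP-1, with the same CMK libraries, 9 of the 10 were again lower (12.1% of all genes were lower and 3.06% higher), with a median of -1.40 over the 10 against 0.05 over all genes. The values were -2.76 ± 0.34 for HTA2, -2.21 ± 0.28 for HTB2, -2.10 ± 0.33 for HHF2 and 0.02 ± 0.73 for HHT1. The count was 3 without 1-NAPP-1 replicate 1, 0 without 1-NAPP-1 replicate 2 and 0 without CMK replicate 2.

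**Figure D1:**
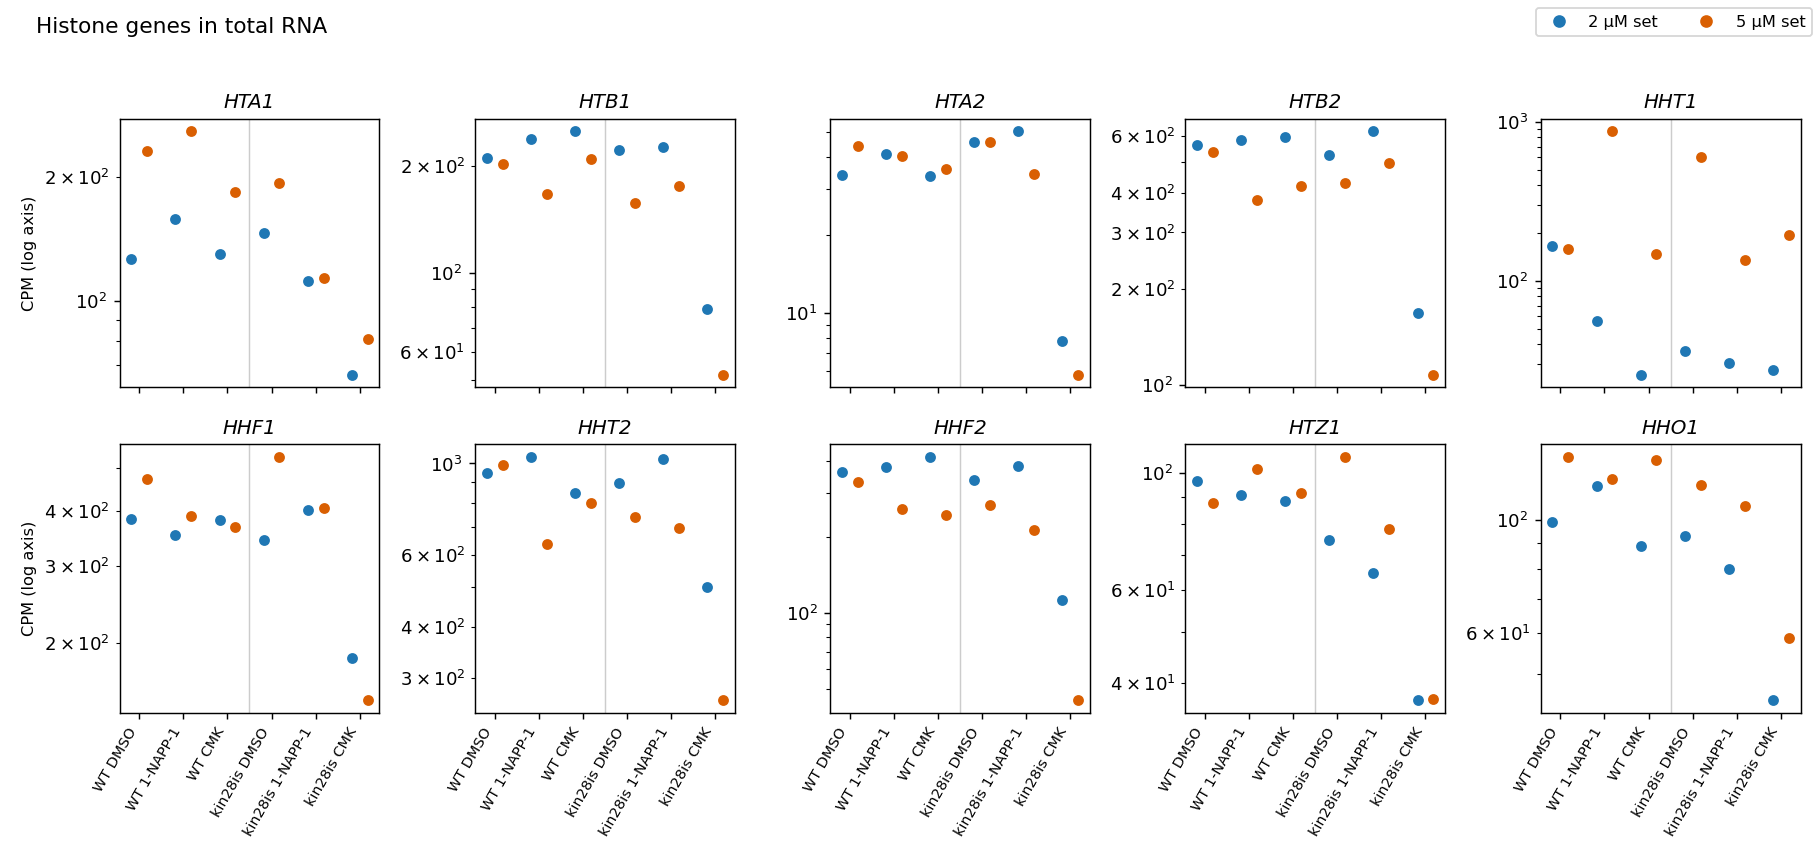
Reads per 1000000 S. cerevisiae reads (CPM, log axis) of the 10 histone genes in total RNA, 1 point per library, for WT and kin28is cells with each treatment, blue for the 2 µM and orange for the 5 µM set. Except in HHT1, both kin28is CMK points lie below both kin28is DMSO points, for example at 168 and 107 CPM for HTB2.

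Measured per S. pombe RNA, 6 of the 10 genes were lower with CMK than with DMSO in total RNA, where 1.99% of 5226 genes were lower. The fitted median of all genes was 0.18, but between same-numbered libraries it was -0.21 at 2 µM and 0.96 at 5 µM. HTB2 stood at 2342 and 436 reads per 1000000 S. pombe reads with DMSO and at 608 and 145 with CMK, and HHF2 at 1502 and 273 with DMSO and at 407 and 60.8 with CMK. Within each replicate set CMK was lower, but the sets differed so much that the groups overlapped in 9 of the 10 genes, all but HTA2 (0.381% of genes had both CMK libraries below). The difference was -2.10 ± 0.37 for HHF2 (adjusted p = 7.96e-06), -1.91 ± 0.35 for HTB2 (adjusted p = 1.98e-05) and -2.84 ± 0.74 for HTA2 (adjusted p = 0.0114). HTB1, HHF1 and HHT2 lay at -1.66, -1.42 and -1.23. HTA1 (-1.31 ± 0.44), HTZ1 (-1.35 ± 0.52), HHO1 (-1.15 ± 0.49) and HHT1 (-1.16 ± 0.44) were not called. Each interval of 95% lay below 0, but this fit assigned every gene the same extra spread, and the error of HHT1 was 0.72 in the relative fit, where genes had their own. The count fell to 1 without CMK replicate 2 and to 0 without the replicate term. Against 1-NAPP-1, the same 6 genes were called, by -1.52 to -2.95, with 3.94% of all genes lower, and the count was 2 without 1-NAPP-1 replicate 1 and 2 without CMK replicate 2. In bulk RNA, fewer cells and less RNA per cell cannot be told apart.

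In the other total RNA comparisons, fitted only per S. pombe RNA, few or none of the 10 were called. In kin28is cells 1-NAPP-1 against DMSO called 0 of the 10 and 0 of 5226 genes, with 1 of the 10 at an unadjusted p under 0.05, and DESeq2 called 0 of the 10. HTB2 gave 0.46 ± 0.34 and HHF2 0.19 ± 0.35. In WT cells CMK against DMSO and 1-NAPP-1 against DMSO also called 0 of the 10 and 0 genes in all, and DESeq2 called 0 of the 10, with HTB2 at -0.01 ± 0.34 and -0.17 ± 0.34. At an unadjusted p under 0.05 there was 1 of the 10 with CMK (HHT1, -1.80 ± 0.47) and 0 with 1-NAPP-1. Medians over the 10 were 0.14 for 1-NAPP-1 in kin28is, -0.01 for CMK in WT and 0.06 for 1-NAPP-1 in WT. Over all genes they were 0.31, 0.325 and 0.245. In CPM, same-numbered libraries at 5 µM gave -0.36, -0.30 and -0.20 in that order, against 0.19, 0.35 and 0.38. There 8, 8 and 7 of the 10 were lower than with DMSO. At 2 µM the 10 had 0.08, 0 and 0.10, against -0.04 to 0.02 over all genes. These comparisons were not tested on that scale. The CMK response in kin28is minus that in WT was called for HHF2, at -2.10 ± 0.51 (adjusted p = 0.0167), and HTB2, at -1.90 ± 0.48 (adjusted p = 0.0294), where 0.44% of genes were called lower. Both calls were lost without WT DMSO replicate 1, WT DMSO replicate 2, WT CMK replicate 2 or kin28is CMK replicate 2, and 1 of them without kin28is DMSO replicate 1 or CMK replicate 1.

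In nascent RNA at 5 µM, all 10 genes were lower with CMK per S. pombe RNA in kin28is cells, in a setting where 70.5% of 5211 genes were lower. HTB2 stood at 723 and 847 reads per 1000000 S. pombe reads with DMSO, 997 and 667 with 1-NAPP-1 and 125, 64.1 and 34.5 with CMK. HHT2, the main H3 gene, stood at 640 and 924 with DMSO, 1120 and 816 with 1-NAPP-1 and 119, 115 and 65.3 with CMK. HTA2 stood at 33.5 and 58.1 with DMSO, 93.8 and 33.6 with 1-NAPP-1 and 1.59, 4.01 and 1.20 with CMK. Its CMK values rest on 1, 3 and 3 reads, so the size of its fall is uncertain. In each of these genes, and in all 10, the 3 CMK libraries lay below both DMSO libraries, as did 81.7% of all genes.

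The median fall over the 10 was 7.75-fold, at -2.96 on the log2 scale against -1.66 over all genes. The difference was -4.43 ± 0.99 for HTA2 (adjusted p = 0.000161), -3.40 ± 0.55 for HTB2 (adjusted p = 3.02e-07), -3.17 ± 0.58 for HHF2 and -2.96 ± 0.53 for HHT2. The core genes HTA1, HTB1 and HHF1 lay at -2.95, -2.81 and -2.43. HTZ1 was at -2.27 ± 0.64 and HHO1 at -2.41 ± 0.69, with intervals that overlap those of the core genes. HHT1 gave -3.59 ± 0.61, from 48.2 and 41.7 with DMSO to 15.9, 0 and 0 with CMK. In this fit too every gene was assigned the same extra spread, so the error of HHT1 does not carry its wide scatter between libraries. Without any 1 of the 5 libraries, 8 to 10 of the 10 were called. Against 1-NAPP-1, with the same CMK libraries, all 10 were lower (73.8% of genes were lower and 0.0192% higher), with a median of -3.35 against -1.82 over all genes. The CMK libraries lay below both 1-NAPP-1 libraries in 9 of the 10, all but HHT1, as in 85.3% of all genes. When the 2 µM libraries were added, for 16 in all, 0 of the 10 were called in either comparison, and against 1-NAPP-1 all but HHT1 turned positive, with HTB2 at 1.31 and HHT2 at 1.15.

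**Figure D2:**
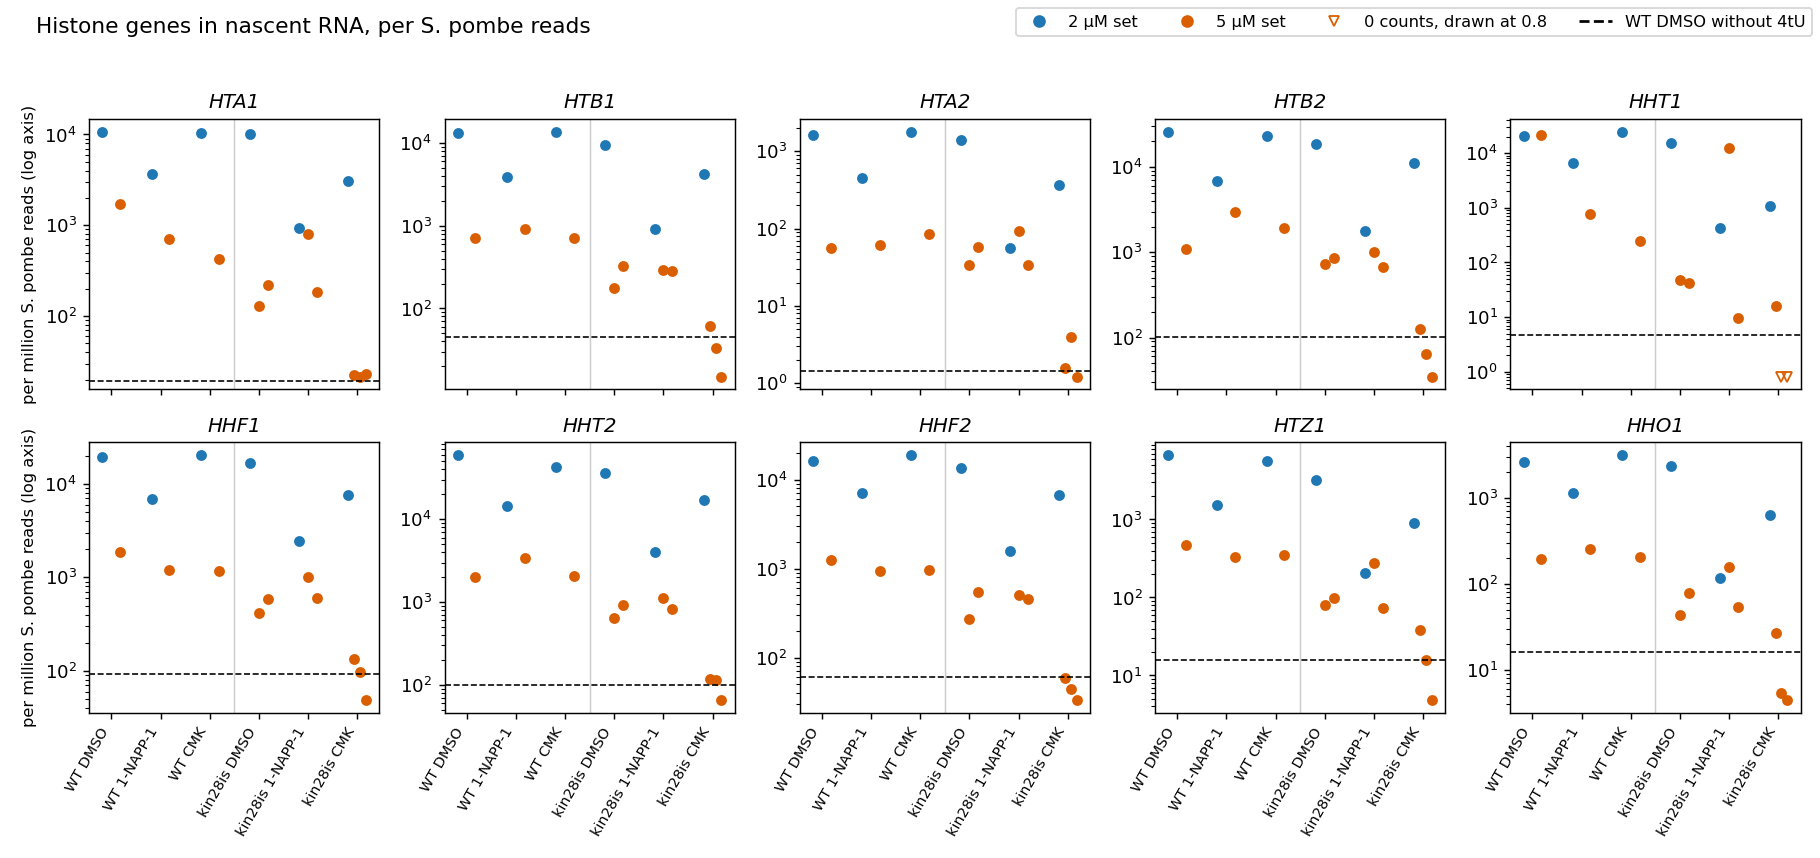
Reads per 1000000 S. pombe reads (log axis) of the 10 histone genes in nascent RNA, 1 point per library, with the WT DMSO library without 4tU as a dashed line. The orange 5 µM CMK points lie lowest among the kin28is points, for example at 125, 64.1 and 34.5 for HTB2 against a line at 101, except in HHT1, where a 1-NAPP-1 point at 9.52 lies below a CMK point at 15.9.

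The pulled-down fraction of the culture without 4tU gives the background of the pull-down, and the CMK levels reached it. It held 101 reads of HTB2 per 1000000 S. pombe reads, 99.5 of HHT2, 61.1 of HHF2, 45.2 of HTB1 and 1.45 of HTA2. For HHF2 all 3 CMK libraries were at or below this level, for HTB1, HTB2, HHT1 and HHO1 2 of 3, and for HTA2, HHF1, HHT2 and HTZ1 1 of 3. HTA1 was the exception, at 21.4 to 23.2 with CMK against 19.2. In all, 9 of the 10 genes had at least 1 CMK library at or below the background, against 26.67% of all genes. Every DMSO library of kin28is at 5 µM lay above it for every one of the 10. The part of the background in the CMK libraries was not tested, and no background was subtracted.

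Relative to other S. cerevisiae genes, nascent RNA of 5 of the 10 fell with CMK against DMSO at 5 µM, where 2.09% of genes were lower and 2.42% higher. In CPM, HTB2 stood at 599 and 491 with DMSO and at 244, 126 and 124 with CMK, and HHT2 at 530 and 536 with DMSO and at 232, 226 and 236 with CMK. The difference was -1.85 ± 0.28 for HTB2 (adjusted p = 0.00872), -1.28 ± 0.23 for HHT2 (adjusted p = 0.0131) and -1.40 ± 0.26 for HHF2 (adjusted p = 0.0134). HTB1 was at -1.21 ± 0.30 (adjusted p = 0.0422) and HTA2 at -2.65 ± 0.62 (adjusted p = 0.0333). HTA2 had only 1, 3 and 3 reads in the CMK libraries. HTA1 (-1.04 ± 0.43), HHF1 (-0.82 ± 0.23), HTZ1 (-0.81 ± 0.48), HHO1 (-0.81 ± 0.52) and HHT1 (-2.15 ± 1.99) did not pass. The median over the 10 was -1.25 against 0.01 over all genes. The count was 0 without DMSO replicate 2, DMSO replicate 3 or CMK replicate 3, and 3 without CMK replicate 4, while the median stayed between -1.09 and -1.32 in these fits.

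Against 1-NAPP-1, 8 of the 10 fell in relative nascent RNA, all but HTZ1 and HHO1, against 1.13% of all genes lower and 0.806% higher. The 10 had a median of -1.51. The difference was -1.44 ± 0.23 for HHT2 (adjusted p = 0.0144), -1.73 ± 0.29 for HTB2 (adjusted p = 0.0166) and -1.58 ± 0.27 for HHF2 (adjusted p = 0.0178). The count was 0 without 1-NAPP-1 replicate 2 or CMK replicate 3, 2 without 1-NAPP-1 replicate 3 and 1 without CMK replicate 4. The call of HHT1 rests on 1-NAPP-1 replicate 2, without which its value was 0.005.

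**Figure D3:**
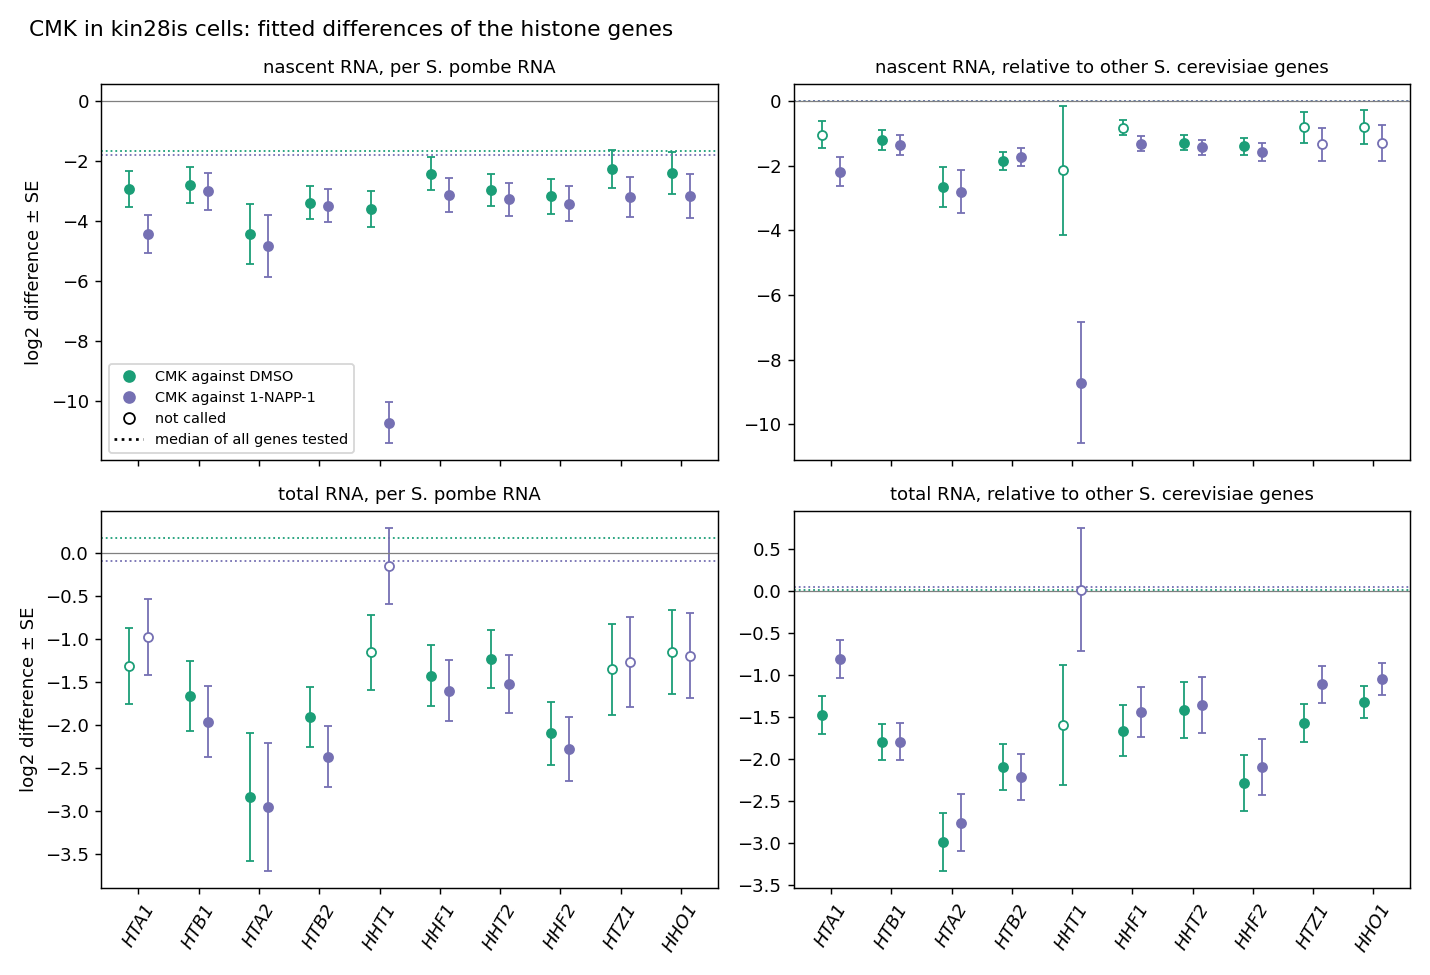
Fitted log2 differences (points) with standard errors (bars) of the 10 histone genes for CMK against DMSO and CMK against 1-NAPP-1 in kin28is cells, by RNA fraction and scaling, with open points not called and dotted lines at the median of all genes tested. The histone points lie below the dotted lines in all panels except HHT1, which lies near the line for total RNA against 1-NAPP-1 (-0.15 per S. pombe RNA, 0.02 relative).

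The calls in the remaining nascent comparisons at 5 µM turned largely on HHT1. In kin28is cells 1-NAPP-1 against DMSO called HHT1 alone, higher by 7.12 ± 0.67 (0.134% of genes were higher), with the other 9 genes between 0.09 and 1.49. Without 1-NAPP-1 replicate 2 that value was -2.28. HTA1, at 1.49 ± 0.64, was the only other gene of the 10 with an unadjusted p under 0.05 in edgeR's quasi-likelihood test. In WT cells, with 1 library per group at this dose, HHT1 alone was called lower with CMK (-6.45 ± 0.91; 0.0768% of genes) and with 1-NAPP-1 (-4.97 ± 0.85; 0.0768%). The WT DMSO library in these tests, replicate 2, held 5949 CPM of it. HTA1 went the same way, at -2.01 with CMK and -1.45 with 1-NAPP-1, and stood at 471 CPM in that library. The spread in those WT tests is that of the kin28is groups. The CMK response in kin28is minus that in WT was called for HTB2 alone, at -4.22 ± 1.04 (adjusted p = 0.0224; 0.269% of genes were lower), and that call was lost without kin28is DMSO replicate 2, DMSO replicate 3 or CMK replicate 3. There, 7 of the 10 had an unadjusted p under 0.05, among them HHT1, which went the other way at 2.85 ± 1.02. The median of that difference over all genes was -1.87, and the share of all genes at that unadjusted level is not reported here.

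HHT1 varied between libraries in a way its copy HHT2 did not. In nascent RNA it stood at 5949 CPM in WT DMSO replicate 2 and 6017 CPM in kin28is 1-NAPP-1 replicate 2, at 463 to 543 CPM in the 3 WT libraries of replicate 1, and at 0 CPM in kin28is CMK replicates 3 and 4. HHT2 in the same 19 libraries kept to 226 to 1345 CPM. In total RNA HHT1 ran from 9.19 CPM in kin28as with 1-NAPP-1 to 873 CPM in WT 1-NAPP-1 replicate 2 and 882 CPM in the WT library without 4tU, and HHT2 from 265 to 1168 CPM. High and low libraries occur in the same group, as in kin28is 1-NAPP-1 at 5 µM with 6017 and 7.27 CPM.

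The count of HHT1 over that of HHT2 ranged from 0 to 10.9 in nascent RNA and from 0.00786 to 1.37 in total RNA, a 174-fold range. The H4 pair from the same loci, HHF1 over HHF2, ranged 2.67-fold in nascent and 3.85-fold in total RNA, and HTB1 over HTB2 ranged 2.71-fold and 1.41-fold. HTA1 over HTA2 ranged 8.18-fold and 6.29-fold. Its highest nascent ratio, 30.7, fell in WT DMSO replicate 2, where HHT1 was also high, and rests on 10 reads of HTA2. In kin28is 1-NAPP-1 replicate 2, where HHT1 was as high, the ratio was 8.5, near the median of 7.97, with 16 reads of HTA2. HTA1 itself stood at 471 and 392 CPM in these libraries, above every other nascent library (median 201 CPM). In total RNA HTA1 was highest, at 257 and 260 CPM, in WT 1-NAPP-1 replicate 2 and the WT library without 4tU, where HHT1 was highest too. Whether HTA1 and HHT1 vary together was not tested. HHF1, which shares its control region with HHT1, stood at 510 CPM in WT DMSO replicate 2 and 501 CPM in kin28is 1-NAPP-1 replicate 2, within its range of 175 to 685 CPM over the 19 nascent libraries.

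**Figure D4:**
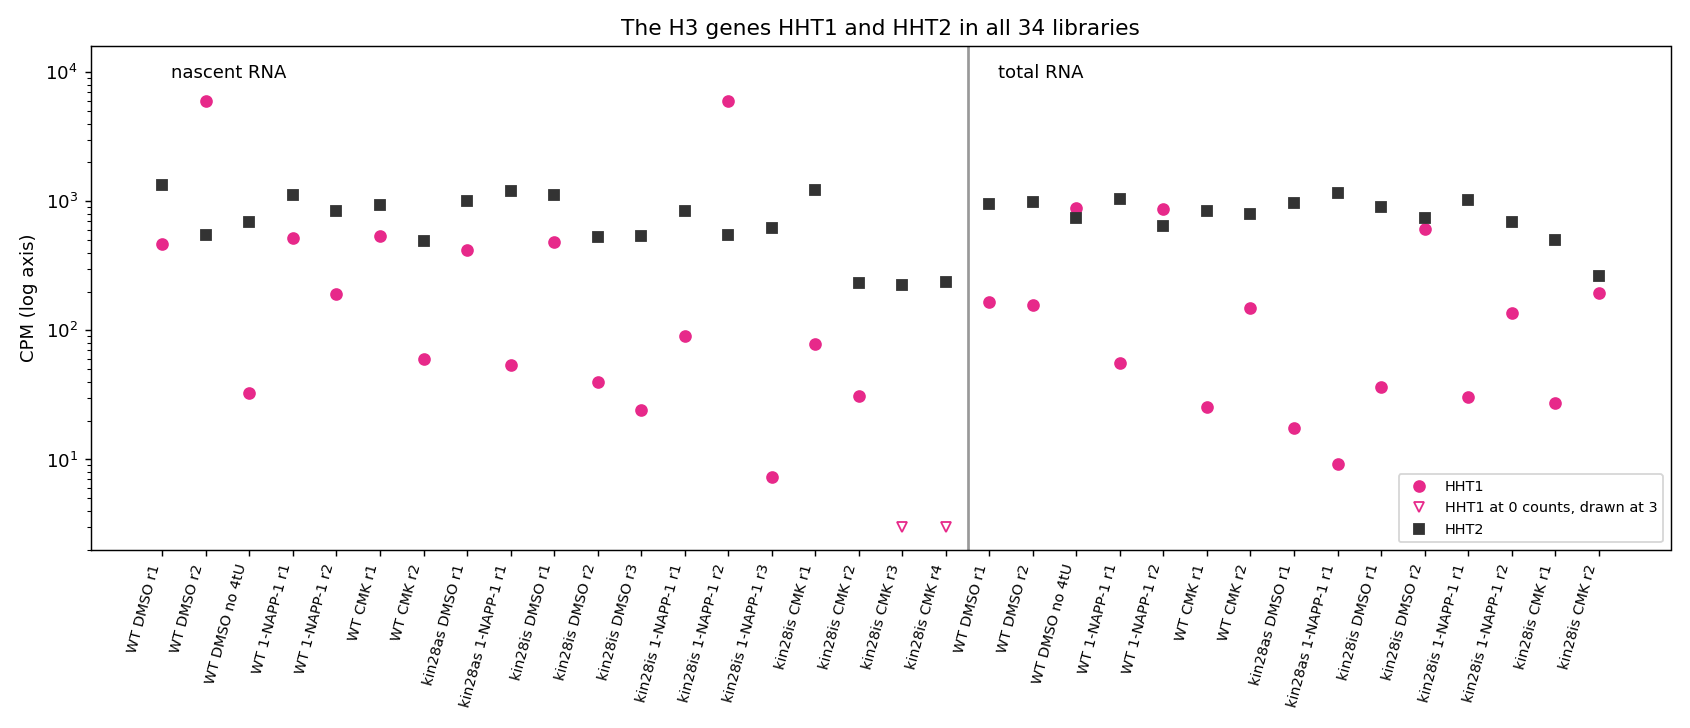
CPM (log axis) of the H3 genes HHT1 (pink circles) and HHT2 (black squares) in all 34 libraries, nascent RNA left and total RNA right, with r giving the replicate number. HHT1 spans 0 to 6017 CPM in nascent RNA while HHT2 keeps to 226 to 1345 CPM.

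The 2 µM set differed from the 5 µM set in nascent RNA. In kin28is cells at 2 µM, CMK set against the same-numbered DMSO library gave a median over the 10 of -0.24 in CPM, with 5 genes lower and 5 higher, against -0.70 in replicate 2 at 5 µM and -1.59 in replicate 3, there over 9 genes because HHT1 had 0 counts with CMK. At 2 µM HTB2 stood at 804 CPM in the CMK library, above the 583 CPM of DMSO and the 376 CPM of 1-NAPP-1. HHT2 stood at 1234, 1129 and 846 CPM in the same order. Per S. pombe reads all 10 were lower with CMK than with DMSO at 2 µM, with a median of -1.44 against -1.22 over all genes. On that scale 1-NAPP-1 against DMSO at 2 µM gave a larger fall in kin28is, -3.42 against -2.80 over all genes. In WT at 2 µM, 1-NAPP-1 gave -1.72 against -1.81 over all genes, and CMK gave 0.07 against -0.03. With CMK against 1-NAPP-1 in kin28is at 2 µM, the 10 genes had a median of 0.56 in CPM, with 9 higher. The 5 µM pairs had -1.06 (10 lower) and -1.73 (9 lower of the 9 with counts). In total RNA the sets went the same way for CMK against DMSO in CPM, with medians of -1.10 at 2 µM and -1.62 at 5 µM. All 10 genes were lower in both, and the medians over all genes were 0.10 and 0.55. Per S. pombe reads the 10 had -1.42 and -1.21, while all genes had -0.21 at 2 µM and 0.96 at 5 µM.

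**Figure D5:**
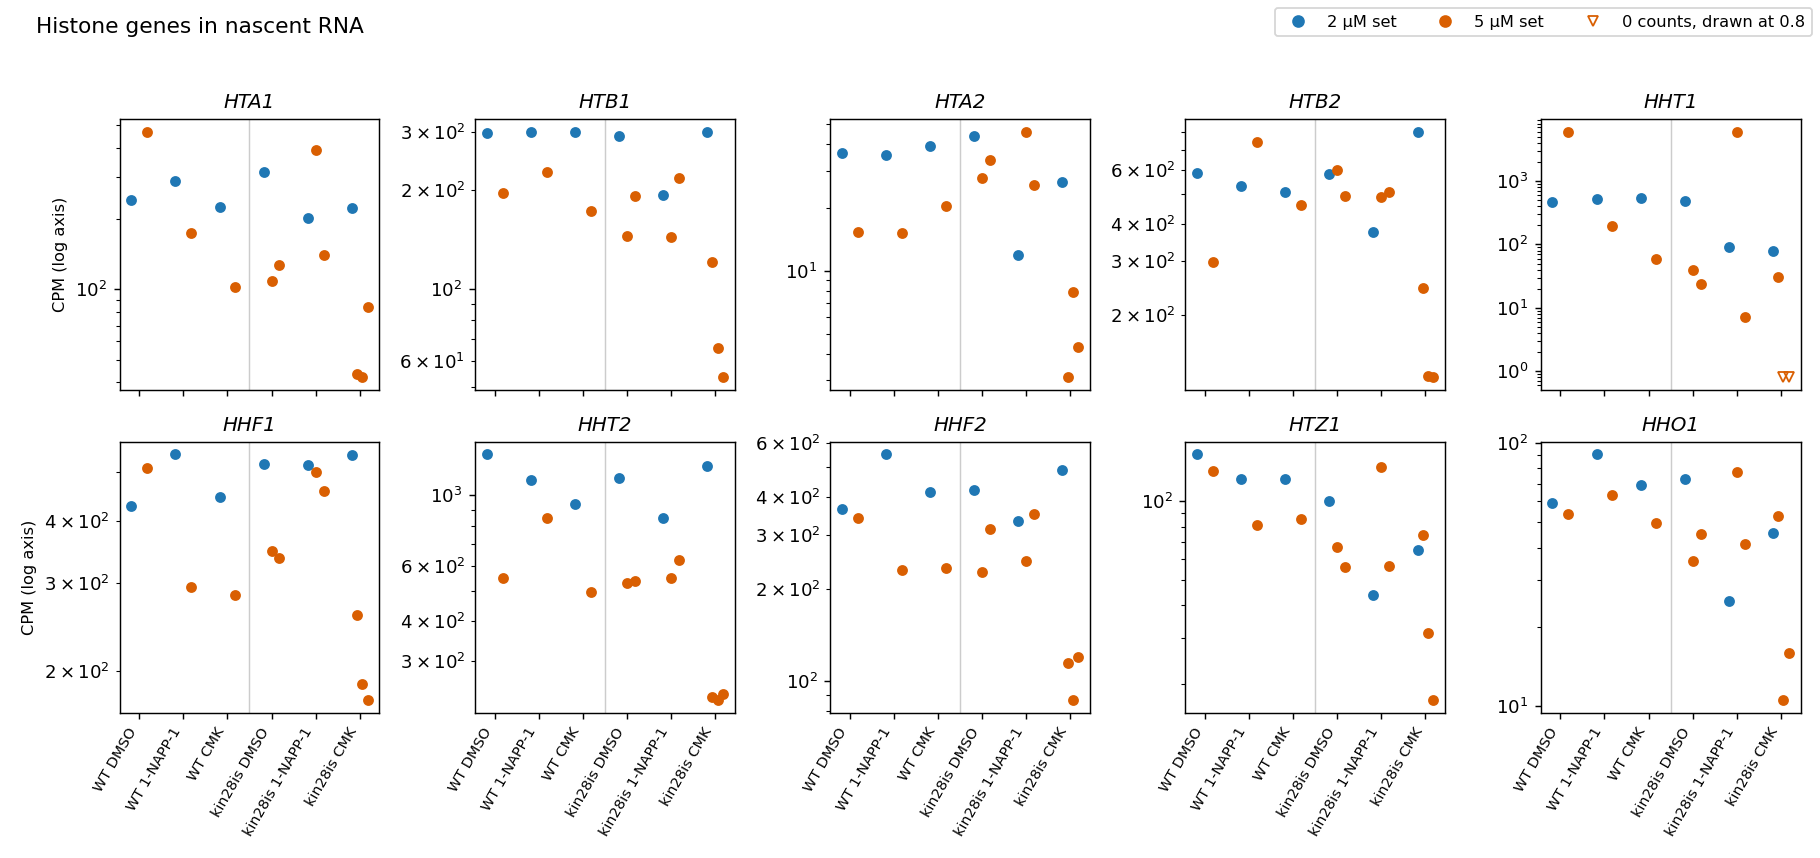
CPM (log axis) of the 10 histone genes in nascent RNA, 1 point per library, blue for the 2 µM and orange for the 5 µM set, open triangles for 0 counts. The blue kin28is CMK point lies above the blue 1-NAPP-1 point in 9 of 10 genes, and the orange CMK points lie below both orange DMSO points in 7 of 10.

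In kin28as cells, with 1 library per treatment and therefore no test, 7 of the 10 histone genes were higher in nascent CPM with 1-NAPP-1 at 2 µM. HTB2 stood at 480 CPM with DMSO and 948.5 with 1-NAPP-1, HHF1 at 416 and 685 and HHF2 at 489 and 584. HTZ1 stood at 127 and 59.8 CPM and HHT1 at 418 and 53.9, so these genes were lower. Over the 10 the median log2 ratio was 0.24 in CPM and -1.82 per S. pombe reads, against 0.11 and -1.94 over all genes. WT cells gave nearly the same per S. pombe reads in this comparison at 2 µM. Their medians were 0.1 in CPM and -1.72 per S. pombe reads, against -0.01 and -1.81 over all genes. In total RNA of kin28as the medians over the 10 were 0.05 and -0.21, against 0.39 and 0.13 over all genes.

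Genes that act on histones were counted beside them in kin28is cells with CMK against DMSO. In total RNA relative to other genes, where 20.3% of genes were lower and 18.3% higher, 6 of 11 tested regulators of the histone genes were higher and 0 lower. SWI4, the DNA-binding subunit of SBF, rose by 1.24 ± 0.23, HIR2, a subunit of the repressing HIR complex, by 1.24 ± 0.24, and SPT21, the partner of Spt10, by 1.20 ± 0.26. Of 16 histone chaperones and exchange factors 3 were lower and 2 higher, no larger a share than over all genes, among them RLF2, the largest subunit of the assembly factor CAF-1, up by 0.98 ± 0.19, and VPS75, a chaperone of H3 and H4, at -0.61 ± 0.15. Of 12 genes of the start of S phase 5 were higher and 0 lower, among them MCD1, a cohesin subunit, by 0.90 ± 0.18, and the cyclin gene CLB6 by 1.70 ± 0.54. Per S. pombe RNA 0 genes of these 3 lists were called in total RNA in edgeR, where 1.99% of all genes were called lower and 0.306% higher. At an unadjusted p under 0.05 there were 4, 1 and 2, and the share of all genes at that unadjusted level is not reported here. In nascent RNA per S. pombe RNA, 8 of 11, 13 of 16 and 7 of 12 were lower, with medians of -1.70, -1.69 and -1.42, against -1.66 over all genes, of which 70.5% were lower.

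Genes whose log2 CPM followed that of the histone genes most closely were named as a description, within each RNA fraction. The libraries of a fraction differ in depth and dose set, whose part in these correlations was not tested. The median of the 8 core genes over 19 nascent libraries was followed most closely by MIA40, an import factor of mitochondria (Pearson r = 0.94), PAA1, an acetyltransferase of polyamines (0.91), and SDO1, a ribosome maturation factor (0.90). Without the 4 kin28is CMK libraries these were 0.88, 0.72 and 0.77. HHT1 was followed by the helicase genes DBP3 and DBP5 in nascent RNA (both 0.91, and 0.83 and 0.88 without the CMK libraries) and by the ribosomal protein gene RPL7A over 15 total RNA libraries (0.95, and 0.96 without the 2 kin28is CMK libraries).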

How the data were processed

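The authors deposited whole-number read counts per gene for both yeasts, 34 libraries in 1 table. HTSeq 0.6.0, STAR 2.3.0, CASAVA 1.8.2 and the build sacCer3 are named in the submitters' processing notes. Read assignment between genomes or near-identical copies, and any use of strand, are not given in the sources used here. Of 5390 S. cerevisiae features, 5241 were found in RefSeq by systematic name.

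Counts were tested with edgeR 4.0.16 in R 4.3.3 (glmQLFit and glmQLFTest) after filterByExpr with a minimum count of 10, with Benjamini-Hochberg adjustment at 0.05 over all S. cerevisiae genes tested. "Per S. pombe RNA" took library sizes from S. pombe totals and TMM factors computed on that species, and "relative" used S. cerevisiae totals with their own TMM factors. The standard error is the log2 difference over the square root of F. The nascent fit held 10 libraries at 5 µM and 4 residual degrees of freedom. The total RNA fit held 12 libraries with the replicate number, which is the labelled dose set, as a term and 5 residual degrees of freedom. Nascent against total RNA used 28 libraries and 16 residual degrees of freedom. CPM use S. cerevisiae totals. Same-numbered total RNA libraries deviated together (r over 0.1) in 20 of 30 pairs, from -0.24 to 0.78, and the term there rests on the labelled dose. Libraries of a group always differed by more than counting noise (chi-square per degree of freedom at least 6.51).

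The script was tested on simulated counts. All 10 members are named, with up to 3 called genes of each context list by smallest p, and the genes most alike by Pearson r of log2(CPM + 1) among genes with a mean of at least 10 CPM. The genes most like the core histone genes in total RNA are not reported here. Members, lists and tests were chosen with earlier results of these data known. Alternatives were the replicate term, the libraries in the fit, totals without TMM factors, DESeq2 1.42.0, no filter and leaving out libraries. The promoter windows and sequences are from RefSeq, assembly R64.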

Additional observations from a re-analysis of the deposited data

Results flagged for a closer look

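In the 4 nascent kin28is CMK libraries, replicate 1 at 2 µM lay far above the 3 libraries at 5 µM for all 10 histone genes per 1000000 S. pombe reads. S. cerevisiae reads as a whole show this gap, with 13.9 per S. pombe read in replicate 1 against 0.513, 0.509 and 0.277. It is therefore not particular to the histone genes. The gap to the nearest library, divided by the whole range, was 0.999 for HTA1, 0.989 for HTB1, 0.992 for HTA2, 0.992 for HTB2, 0.985 for HHT1, 0.989 for HHF1, 0.997 for HHT2, 0.996 for HHF2, 0.963 for HTZ1 and 0.964 for HHO1. In CPM a gap past the same threshold was seen for HHT2 (0.99) and HHF2 (0.917). Chance takes about 1 of 20 groups of like libraries past that threshold. These 4 libraries differ in labelled dose and in that ratio of reads, and the 10 genes share them, so the rate does not apply to them.

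The CMK response differed between kin28is and WT for HTB2 in nascent RNA, by -4.22 on the log2 scale per S. pombe RNA, and in total RNA for HTB2 by -1.90 and for HHF2 by -2.10. Over all genes the median of the nascent difference was -1.87. The nascent test had 1 WT library per treatment, and its call was lost without any 1 of 3 kin28is libraries and with the replicate block. Both total RNA calls were lost without any 1 of 4 libraries and without the replicate term.

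Some values lay above the WT DMSO libraries with 4tU in libraries used in no test. In the nascent kin28as 1-NAPP-1 library HTB2 stood at 948.5 CPM and HHF2 at 584 CPM, against highest WT DMSO values of 585 and 364. In the nascent library without 4tU HHO1 stood at 111 CPM against 59.0. In the total RNA library without 4tU HHT1 stood at 882 CPM against 166.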

How the results depend on the processing

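Counts here are of the 10 histone genes called in edgeR unless stated. Of 161 alternative counts, 99 kept within 1.5 times of the reported one, 56 lost calls and 6 gained them. The 99 include comparisons with 0 calls in both fits. A turned direction of the calls was looked for only among the 99, where 0 were found. Single genes did turn in some fits, as given below. The cause of these shifts was not tested.

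Same-numbered nascent kin28is libraries at 5 µM deviated together weakly (r over 0.1 in 5 of 6 pairs, 0.03 to 0.24). The reported nascent fit did not hold the replicate number as a term. With the replicate block in that fit, relative nascent counts went from 5 to 3 (CMK against DMSO) and from 8 to 5 (CMK against 1-NAPP-1), and per S. pombe RNA to 0 for 1-NAPP-1 against DMSO and to 0 for the difference between strains. With no replicate block in total RNA, the per S. pombe RNA counts for CMK against DMSO, CMK against 1-NAPP-1 and the difference between strains were 0, 0 and 0.

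With all 16 nascent libraries, in which the 2 µM set enters each group, all 8 nascent counts were 0. With the replicate block added, 7 of the 8 were 0 and CMK against 1-NAPP-1 per S. pombe RNA kept 1. Leaving WT DMSO replicate 2 out of that fit, an alternative chosen after seeing the data, left 0 for both WT comparisons and 0 for the difference between strains. With all 16 libraries CMK against 1-NAPP-1 per S. pombe RNA turned positive, at 0.28 for HTA1, 1.12 for HTB1, 0.60 for HTA2, 1.31 for HTB2, 0.53 for HHF1, 1.15 for HHT2, 1.03 for HHF2, 0.36 for HTZ1 and 0.59 for HHO1, 0 of them called. HHT1 for 1-NAPP-1 against DMSO was -0.24 there.

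DESeq2 called 0 of the 10 for 1-NAPP-1 against DMSO in nascent kin28is and for both nascent WT comparisons, and 4 for the difference between strains in each RNA fraction. Totals without TMM factors gave 5 for relative nascent CMK against 1-NAPP-1, 2 for total CMK against DMSO per S. pombe RNA and 0 for the difference between strains in total RNA. The fit without a filter and the fit of kin28is libraries alone kept every count within 1.5 times.

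Leaving out each library in turn gave these ranges of counts. In nascent RNA per S. pombe RNA they were 0 to 1 for 1-NAPP-1 against DMSO and 0 to 2 for the difference between strains. In relative nascent RNA they were 0 to 6 for CMK against DMSO and 0 to 7 against 1-NAPP-1. In total RNA per S. pombe RNA they were 1 to 9 for CMK against DMSO, 2 to 5 against 1-NAPP-1, 0 to 4 for the difference between strains, 0 to 1 for 1-NAPP-1 against DMSO in kin28is and 0 to 1 for CMK in WT. In relative total RNA they were 0 to 9 for CMK against 1-NAPP-1. HHT1 in nascent kin28is 1-NAPP-1 against DMSO ranged from -2.28 to 8.13, and in relative CMK against 1-NAPP-1 from -15.80 to 0.005. The sign turned without nascent kin28is 1-NAPP-1 replicate 2, and the -15.80 came without CMK replicate 2, which leaves CMK libraries at 0 counts only, so that value depends on the prior count.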
